A study of Mus musculus with 4 samples.

Results

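A set of 10 genes of autophagy and endosomal trafficking were examined for peaks of 2 related transcription factors in mouse regulatory T cells (Treg cells). They were Phf23, Gabarap, Atg3, Atg16l1, Rab33b, Rab5a, Rab8a, Chmp5, Picalm and Snx29, 10 of 21887 protein-coding genes. The members were chosen by the peaks themselves, after peaks at several of these genes had been seen among the highest of the lists, so their folds and counts are given as a description and no test rests on them. A peak was taken as a peak of a gene when its summit lay inside the gene, or when the nearest annotated end of any protein-coding gene, within 100 kb, belonged to that gene. By this rule 10 of 1106 anti-Eos peaks and 7 of 469 anti-Helios peaks belonged to the set. They fell at 9 and 6 of the 10 genes, where 4.38% and 2.12% of all protein-coding genes had a summit by the same rule, and Gabarap held none of its own.

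Chromatin immunoprecipitation with sequencing (ChIP-seq) recovers the DNA that a protein occupies with an antibody against that protein. Here the antibodies were 18H2 against Eos, encoded by Ikzf4, and D8W4X against Helios, encoded by Ikzf2. Both proteins are zinc finger factors of the Ikaros family. The cells were CD4+CD25+ Treg cells enriched with a kit from the spleens of wild-type mice. No strain or age is stated for the animals, nor whether cells of several mice were combined. The series also holds an anti-Eos and an anti-Helios library from mice with a floxed Eos gene and Foxp3-Cre, which removes Eos in cells that express Foxp3. These were not analysed here. Each group is 1 library, so there is no replicate error, and differences between the antibodies are differences between 2 libraries. A strong signal in few cells and a weak one in many cannot be told apart in such bulk samples.

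Autophagy encloses cytoplasm in a double membrane and delivers it to the lysosome. Its membrane grows while small ubiquitin-like proteins of the Atg8 family, Gabarap among them, are attached to lipid by a chain of conjugating enzymes. Rab GTPases mark and steer the vesicles, clathrin adaptors load them at the cell surface, and the ESCRT machinery buds vesicles into endosomes. T cells use these routes to turn over organelles and surface receptors.

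The value behind each peak is the fold enrichment that the authors deposited, over a control that the sources used here do not identify. The median fold was 7.31 over all anti-Eos peaks and 7.66 over all anti-Helios peaks. The whole number of DNA fragments at the summit, recovered from the fold and the p-value, had a median of 14 and 18. The recovered local background, the control signal expected at the same place, had a median of 0.943 and 1. It is on the scale of each list. The lists were scaled differently, so it is not a plain count of control fragments. The peak lists do not measure RNA, and so cannot check the labelled cell type directly. Of 7 T cell and Treg cell marker genes, Cd3d and Il2ra had an anti-Eos summit and Cd3d an anti-Helios summit, while Foxp3, Cd4, Cd3e, Cd3g and Ctla4 had none. None of 6 B cell and myeloid markers had a summit of either antibody. Of all protein-coding genes, 4.38% had an anti-Eos and 2.12% an anti-Helios summit, so this absence is no check of the cell type.

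The starts of 4 genes under peaks of both antibodies are printed here, because they show what lies between the start of each gene and its neighbour. Each stretch is the part of the RefSeq promoter entry (GRCm38.p6, plus strand) that a peak covered and that lay before the gene and outside its neighbours. Capitals mark 3 short motifs on either strand: TGGGAA, letters known for Ikaros family proteins, CCGGAA, known for ETS factors, and CACGTG, the E-box read by TFEB and USF proteins. The shorter letters GGGAA, which the stretches of all 4 genes hold, were not searched or marked. The stretches are chr11:69995516-69995761 for Phf23, chr16:45158674-45158828 for Atg3, chr4:40948351-40948552 for Chmp5 and chr7:90130001-90130191 for Picalm.
Phf23: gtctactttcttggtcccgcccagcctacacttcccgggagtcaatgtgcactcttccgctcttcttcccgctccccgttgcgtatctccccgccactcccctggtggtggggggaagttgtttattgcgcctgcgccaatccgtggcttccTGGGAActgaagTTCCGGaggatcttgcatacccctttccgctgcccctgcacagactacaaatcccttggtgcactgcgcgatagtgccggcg
Atg3: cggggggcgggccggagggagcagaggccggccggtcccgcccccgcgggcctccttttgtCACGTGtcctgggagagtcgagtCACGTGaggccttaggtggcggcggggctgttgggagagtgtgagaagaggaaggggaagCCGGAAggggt
Chmp5: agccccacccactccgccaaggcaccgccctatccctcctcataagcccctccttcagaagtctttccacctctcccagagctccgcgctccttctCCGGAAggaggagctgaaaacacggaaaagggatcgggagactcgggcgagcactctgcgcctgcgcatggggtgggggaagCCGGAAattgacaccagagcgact
Picalm: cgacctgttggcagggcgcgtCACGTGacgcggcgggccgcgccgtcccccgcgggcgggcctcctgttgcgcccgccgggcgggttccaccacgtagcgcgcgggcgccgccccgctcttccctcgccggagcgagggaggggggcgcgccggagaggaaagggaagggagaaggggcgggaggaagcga

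Outside Snx29, all 13 peaks of the set sat at an end of a gene. The 8 anti-Eos summits there lay 2 to 252 bp from an end of their gene, and the 5 anti-Helios summits 15 to 389 bp. Over the whole lists, 39.5% of anti-Eos summits and 51.0% of anti-Helios summits lay within 1 kb of a protein-coding gene end, against 8 of 10 and 5 of 7 in the set. The promoter entries give the strand of 9 of the 10 genes, all on the plus strand, so for these the end at the peak is the start of the gene. For Atg16l1 no entry was matched, and its peak lay at the end with the lower coordinate. The map of peaks around gene starts shows each peak with its summit.

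**Figure D1:**
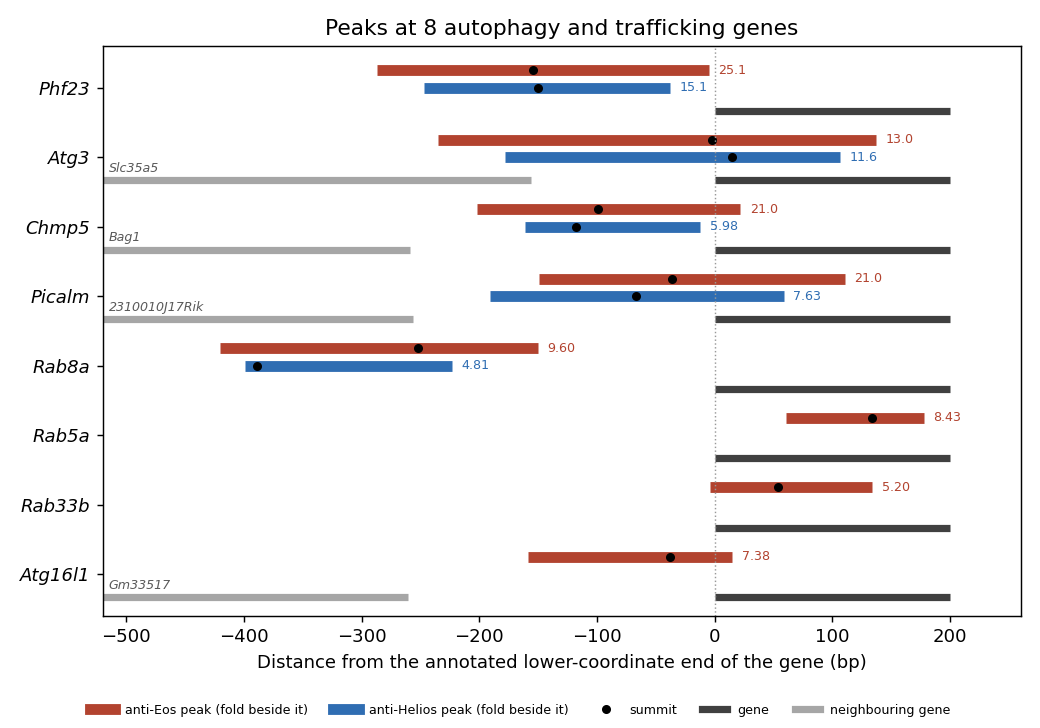
Peaks of the anti-Eos (red) and anti-Helios (blue) lists at 8 of the genes, against the distance in bp from the annotated lower-coordinate end of each gene, with the fold beside each peak, a dot at each summit and neighbouring genes in grey. The 8 anti-Eos summits lie within 252 bp of the gene end, and Rab5a, Rab33b and Atg16l1 have no anti-Helios peak.

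Phf23 encodes a PHD finger protein that has been described as a negative regulator of autophagy. It carried the peaks with the highest fold of the set with both antibodies (chr11, 69995479 to 69995761 for anti-Eos, 69995519 to 69995728 for anti-Helios). The anti-Eos fold was 25.1, rank 4 of 1106, with 46 fragments (exact Poisson 95% interval 33.7 to 61.4) over a local background of 0.871. The anti-Helios fold was 15.1, rank 13 of 469, with 34 fragments (23.5 to 47.5) over 1.08. By fragments the anti-Helios peak at Chmp5 was larger, with 39. The summits at Phf23 were 4 bp apart, the closest of the set, at 154 and 150 bp before the start of Phf23.

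Gabarap encodes an Atg8 family protein, one of the small modifiers that are joined to the growing membrane. It is listed here through the Phf23 peaks only. Their summits lay 663 and 667 bp beyond the end of Gabarap (gene at chr11, 69991370 to 69994949), in the 816 bp between both genes. Both genes are on the plus strand, so this is a tandem pair and not a divergent one, and the start of Gabarap was 4242 and 4246 bp from the summits. Neither list held a peak whose nearest gene end was one of Gabarap. Calling the Phf23 peaks peaks of Gabarap would therefore rest on the downstream end of that gene.

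Atg3 encodes the E2-like enzyme that passes Atg8 proteins to lipid. Its peaks (chr16, 45158594 to 45158966 and 45158651 to 45158936) covered the whole 155 bp between Atg3 and the divergent gene Slc35a5, a member of the SLC35 family of nucleotide sugar transporters. The anti-Eos fold was 13.0 with 19 fragments (11.4 to 29.7) over 0.542, and the anti-Helios fold 11.6 with 22 fragments (13.8 to 33.3) over 0.779. The summits were 17 bp apart. With anti-Eos the summit was 2 bp before the Atg3 start and 154 bp from the Slc35a5 start, and with anti-Helios it was 15 bp inside Atg3 and 171 bp from Slc35a5. Both summits were thus nearer to Atg3 than to Slc35a5. The rule required this of any summit between the genes, since one nearer to Slc35a5 would have been assigned to Slc35a5. Slc35a5 was not assigned these peaks by the rule, although they reached into it. In the printed stretch, the centre of the CCGGAA match lay 6 bp before the anti-Eos summit and the 2 CACGTG matches 89 and 66 bp before it.

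Atg16l1 encodes the protein that places the conjugating enzymes on the membrane. It had an anti-Eos peak (chr1, 87755848 to 87756022, summit 38 bp outside the gene) with a fold of 7.38, 12 fragments (6.20 to 21.0) over a background of 0.762, and a -log10 q of 6.97. This fold is close to the median of the list. The nearest anti-Helios summit was 899.0 kb away. The long non-coding RNA gene Gm33517 ended 223 bp from the summit on the other side.

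The 3 Rab genes gave peaks of lower fold than Phf23 and Atg3. By anti-Eos fragments Rab8a and Atg3 were alike, with 18 and 19. The anti-Eos background of 0.542 at Atg3 and Rab5a was the lowest of that list, which raises their folds. Rab33b encodes a Golgi Rab GTPase that binds Atg16L1, and Rab5a the GTPase of early endosomes. Rab33b had an anti-Eos peak of fold 5.20 (chr3, 51483962 to 51484100, 14 fragments, 7.65 to 23.5, over 1.89), with the summit 54 bp inside the gene. Its -log10 q of 4.37 was the lowest of the anti-Eos peaks in the set. Rab5a had an anti-Eos peak of fold 8.43 (chr17, 53479295 to 53479412, 12 fragments, 6.20 to 21.0, over 0.542), with the summit 134 bp inside the gene. These are the summits that lay farthest inside a gene, apart from those in Snx29, and neither gene had an anti-Helios peak.

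Rab8a encodes a GTPase of transport from recycling endosomes and the Golgi to the cell surface. It was the Rab gene with peaks of both antibodies (chr8, 72160780 to 72161050 and 72160801 to 72160977). The anti-Eos fold was 9.60 with 18 fragments (10.7 to 28.4) over 0.980, and the anti-Helios fold 4.81 with 15 fragments (8.40 to 24.7) over 2. The summits, 252 and 389 bp before the start, were 137 bp apart, the widest separation in the set. The anti-Helios peak had a -log10 q of 3.01, the lowest of the 7.

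Chmp5 encodes an ESCRT-III associated protein of multivesicular endosomes. It shares 258 bp with the divergent gene Bag1, which encodes a co-chaperone of Hsp70. Both peaks (chr4, 40948351 to 40948575 and 40948392 to 40948541) had their summits between these genes, 99 and 118 bp before Chmp5 and 160 and 141 bp before Bag1. The anti-Eos fold was 21.0 with 36 fragments (25.2 to 49.8) over a background of 0.762. The anti-Helios fold was 5.98 with 39 fragments (27.7 to 53.3) over a background of 5. The libraries thus held similar numbers of fragments at Chmp5. The difference in fold then falls on the recovered background, which was solved from the fold. The first printed CCGGAA match was centred 4 bp before the anti-Eos summit and 15 bp after the anti-Helios summit, and the second 78 and 97 bp after them.

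Picalm encodes a clathrin assembly protein that recruits clathrin to the plasma membrane and sorts SNARE proteins. Its peaks (chr7, 90130043 to 90130303 and 90130001 to 90130251) spanned the start of the gene. The anti-Eos fold was 21.0 with 36 fragments (25.2 to 49.8) over 0.762, and the anti-Helios fold 7.63 with 33 fragments (22.7 to 46.3) over 3. As at Chmp5, the fragment counts were alike and the local backgrounds were not. The summits were 31 bp apart. The divergent neighbour is the long non-coding RNA gene 2310010J17Rik, whose start lay 220 and 189 bp from the summits and 255 bp from Picalm.

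Snx29 encodes a sorting nexin, a family whose members bind phosphoinositides of endosomal membranes. It was the only gene of the set with peaks deep inside it, and the only one with more than 1 peak per antibody. The gene spans 436 kb (chr16, 11322861 to 11759095). The 2 places lay about 281 kb from the nearest start site of the gene and within 72.7 kb of its far end. Exons and introns are not given in the gene table used here, so the peaks are placed only as inside the gene. The first place (11686160 to 11686602 with anti-Eos, 11686281 to 11686462 with anti-Helios) and the second (11687288 to 11687877 and 11687330 to 11687728) had summits 1258 bp apart with anti-Eos and 1240 bp with anti-Helios.

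The order of the folds at Snx29 was opposite in the lists. With anti-Eos the first place had a fold of 21.6 (37 fragments, 26.1 to 51.0, over 0.762) and the second 8.17 (38 fragments, 26.9 to 52.2, over 3.77). With anti-Helios the first had 4.73 (20 fragments, 12.2 to 30.9, over 3) and the second 8.11 (17 fragments, 9.90 to 27.2, over 1). Within each library the fragments at the 2 places had overlapping intervals. The lower fold stood where the recovered background was higher, which follows from the formula when fragments are alike. The anti-Eos peaks were also wider, at 443 and 590 bp against 182 and 399 bp.

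**Figure D2:**
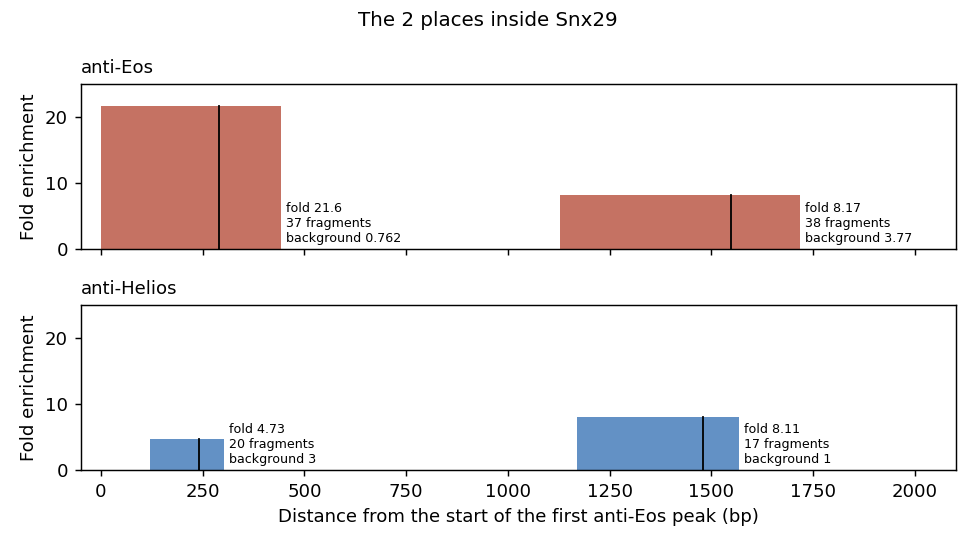
The peaks inside Snx29 by distance in bp from the start of the first anti-Eos peak, with the fold on the vertical axis, a line at each summit, and the recovered fragments and local background beside each peak. The anti-Eos fold is higher at the first place (21.6 against 8.17) and the anti-Helios fold at the second (8.11 against 4.73), while the fragments differ little between the places of 1 library.

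The comparison of antibodies asked at which of these places both lists had a peak. All 7 anti-Helios peaks of the set overlapped an anti-Eos peak, by 150 to 399 bp, against 65.9% of all anti-Helios peaks. Of the 10 anti-Eos peaks 7 overlapped, against 27.9% of all anti-Eos peaks. At the level of genes, 9 of 10 had an anti-Eos summit, 6 of 10 an anti-Helios summit and 6 of 10 both, where 4.38%, 2.12% and 1.54% of all protein-coding genes did. Since the genes were chosen on these peaks, the shares show only how the set was made. The summits of the 7 overlapping pairs were 4 to 137 bp apart with a median of 31 bp, beside a median of 30.5 bp (quartiles 13 and 64) over all 310 overlapping pairs.

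The anti-Eos peaks without an anti-Helios partner, at Atg16l1, Rab5a and Rab33b, rested on 12, 12 and 14 fragments. Over the whole list, 14.5% of the 296 anti-Eos peaks with 12 to 14 fragments overlapped an anti-Helios peak (95% Wilson interval 11 to 19%). For the 80 peaks with 18 to 19 fragments it was 43.8% (33.4 to 54.7%). The anti-Eos peaks of Rab8a and Atg3, with 18 and 19 fragments, both had a partner. The share was 87.1% (71.1 to 94.9%) for the 31 peaks with 36 fragments or more. All 5 peaks of the set at that depth had a partner. The lowest -log10 q listed was 2.08 in the anti-Eos list and 2.24 in the other, and the smallest listed anti-Helios peak had 9 fragments. Weaker anti-Helios signal at the 3 genes would not be listed, so the lists cannot show that it is absent.

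Folds were placed within each list, since each was computed over its own background. In the anti-Eos list the 10 peaks had folds of 5.20 to 25.1 with a median of 11.3, and 6 of them were in the highest 25% by fold. In the anti-Helios list the 7 peaks had folds of 4.73 to 15.1 with a median of 7.63, close to that of the whole list, and 2 were in the highest 25%.

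**Figure D3:**
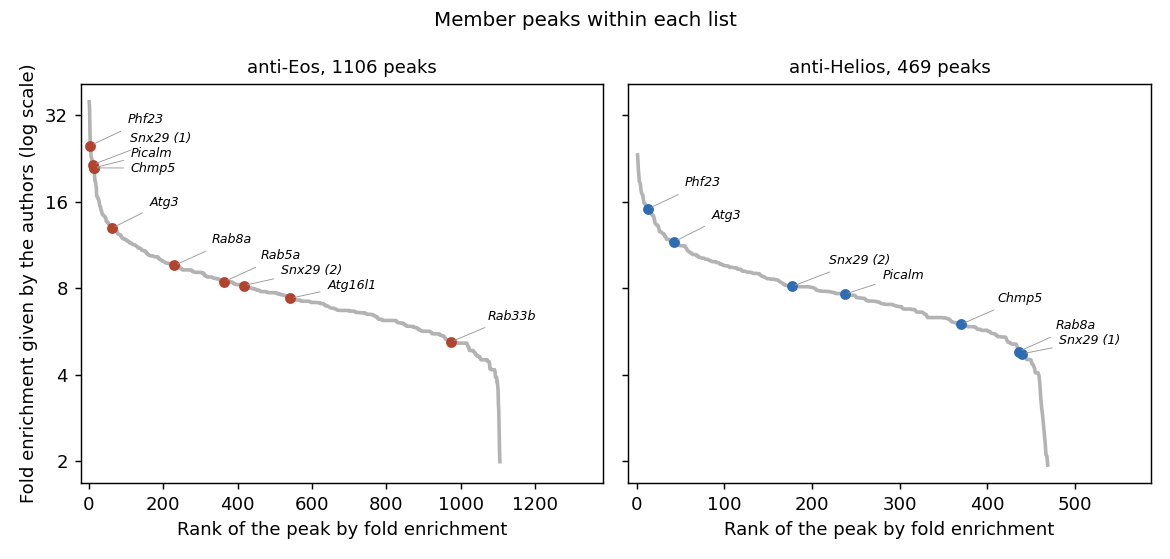
Fold enrichment (log scale) against rank for all 1106 anti-Eos and 469 anti-Helios peaks in grey, with the peaks of the set as labelled points; (1) and (2) are the first and second places inside Snx29. Phf23 and Atg3 stand near the top of both lists, whereas Chmp5, Picalm and the first Snx29 place are near the top for anti-Eos and at or below the middle for anti-Helios.

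Ranks among the 310 overlapping pairs put both lists on the same places. Phf23 had rank 4 by anti-Eos fold and rank 13 by anti-Helios fold, and Atg3 had ranks 47 and 39. Chmp5 had ranks 13 and 249, Picalm 13 and 178, and the first Snx29 place 11 and 294. Rab8a had ranks 123 and 290, and the second Snx29 place 177 and 140. Phf23 and Atg3 therefore ranked alike with both antibodies, while Chmp5, Picalm, Rab8a and the first place in Snx29 ranked far lower with anti-Helios.

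The recovered counts show which term of the fold moved. The ratio of anti-Helios to anti-Eos fragments was 1.08 at Chmp5 (exact 95% interval 0.671 to 1.75), 0.917 at Picalm (0.554 to 1.51), 0.833 at Rab8a (0.391 to 1.75) and 1.16 at Atg3 (0.598 to 2.26). The median over all pairs was 1.06 (quartiles 0.875 and 1.31), and the intervals cover counting error only. At Phf23 the ratio was 0.739 (0.460 to 1.18). The first and second Snx29 places had ratios of 0.541 (0.297 to 0.956) and 0.447 (0.237 to 0.812), the lowest of the 7. They go with 37 and 38 anti-Eos fragments, against a median of 18 over all pairs, and 20 and 17 anti-Helios fragments, against a median of 19. These values describe 2 libraries at places chosen by their peaks, and no difference was tested.

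The recovered local backgrounds, each on the scale of its list, differed more. The background of the anti-Helios peak was 6.56 times that of the anti-Eos peak at Chmp5. It was 3.94 times at Picalm and at the first Snx29 place, and 2.04 times at Rab8a. It was 1.24 times at Phf23 and 1.44 times at Atg3, and 0.265 times at the second Snx29 place. Over all pairs the median was 1.06 (quartiles 0.712 and 1.67), and 62 of the 310 pairs had a ratio of at least 2, against 4 of 7 here. The ratio at Rab8a is so close to 2 that its place above this cut depends on the scaling. These 4 are the places that ranked far lower with anti-Helios. The background was solved from the fold, so where fragments are alike a lower fold gives a higher background. The match is therefore largely built in and is no separate observation. The anti-Eos background was the same 0.762 at Chmp5, Picalm and the first Snx29 place, and also at Atg16l1, below the list median of 0.943. The recovered values cannot show whether it was measured at each of these places. A background of 5 is itself small. Why the recovered anti-Helios backgrounds were higher at these places was not tested.

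**Figure D4:**
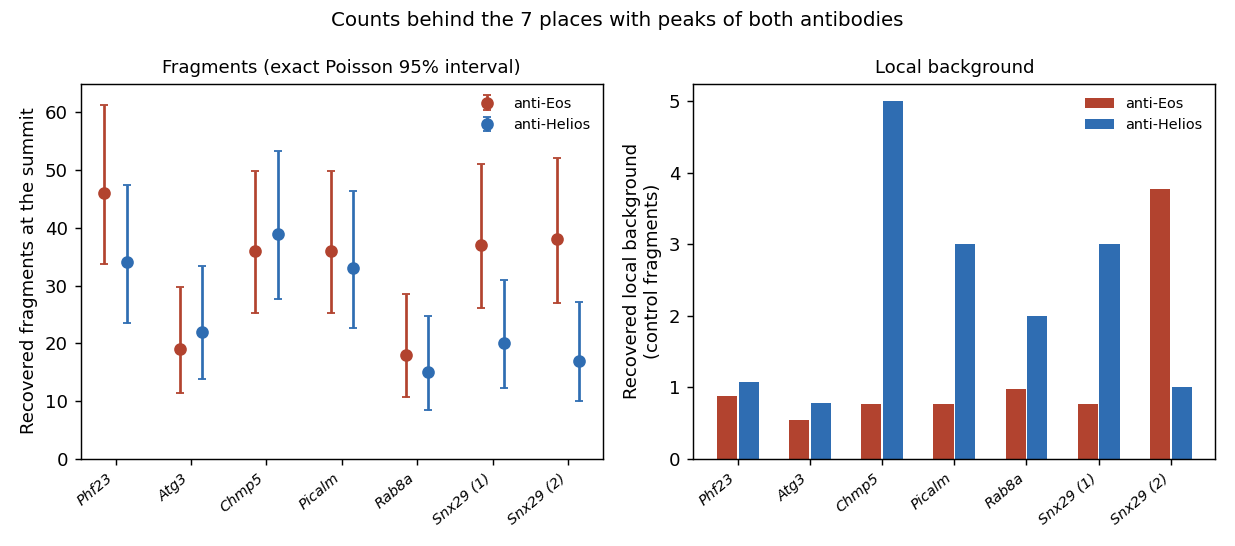
Recovered fragments at the summit with exact Poisson 95% intervals (left) and recovered local background (right, axis labelled control fragments, values on the scale of each list) at the 7 places with peaks of both antibodies; (1) and (2) are the places inside Snx29. The fragment intervals of Chmp5, Picalm and Rab8a overlap over most of their length, while the anti-Helios background is at least 2.04 times the anti-Eos background there and at the first Snx29 place.

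Base composition and motifs were then read from the promoter entries, which run from 250 bases before to 50 bases after a start. For the 7 genes of the set with a peak near a matched start, GC content was 62.0% to 78.0%, highest at Picalm. The median was 56.3% over 21263 entries of protein-coding genes (quartiles 48.3 and 64.7%). Entries that held an anti-Eos summit had a median of 61.3% (56.7 to 67.0%). Of the 7 entries, only those of Phf23, Atg3, Chmp5 and Picalm held a summit. Peaks of Rab8a and Rab33b reached into their entries with the summit outside, and the Rab5a peak did not reach its entry. The number of CpG dinucleotides was 17 at Phf23 and 44 at Picalm, with the others between, beside medians of 13 over all entries and 22 over entries with an anti-Eos summit. The starts of these 7 genes thus all had a GC content above the median of all entries, as did the median under anti-Eos summits. Phf23 (62.0%), Chmp5 (62.3%) and Rab8a (64.0%) still lay within the quartiles of all entries. Picalm lay above 97.5% of all entries by GC content.

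The ETS letters CCGGAA, on either strand, were in 5 of these 7 entries (Phf23, Atg3, Chmp5, Picalm and Rab8a, the 5 with peaks of both antibodies). They were in 18.7% of all entries, in 42.3% of the 274 with an anti-Eos summit and in 42.7% of the 96 with summits of both antibodies. The match at Picalm began 18 bases after the start and that at Rab8a 34 bases before it, outside the printed stretches. Both Rab8a peaks ended farther upstream, so the Rab8a match was not under a peak. The Rab8a entry held no summit and is not among the 274 or the 96. The Ikaros family letters TGGGAA were in 1 of 7, that of Phf23. The centre of this match lay 59 bp after the anti-Eos and 55 bp after the anti-Helios summit, next to a CCGGAA match on the other strand. TGGGAA was in 24.5% of all entries and 27.0% of those with an anti-Eos summit. Shorter forms such as GGGAA were not searched, so the count covers these exact letters only. The E-box CACGTG was in 3 of 7, with 2 matches each in the entries of Atg3, Picalm and Rab5a, against 7.84% of all entries and 11.7% of those with an anti-Eos summit. Those of Rab5a lay before its start, whereas its peak lay inside the gene, so they were not under the peak. The match at Picalm that is not printed spans its start. A match of letters is a description of the window, not a site of binding.

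Divergent neighbours were read from the same entries. Of the 9 genes with an entry, Atg3 and Chmp5 had a protein-coding start on the other strand within 1 kb upstream, against 8.48% of 17492 protein-coding genes. With the non-coding neighbour, Picalm had one too. In each of the 3 pairs the summits of both antibodies lay at or before the start of the trafficking gene or within 15 bp after it. The anti-Eos summits were nearer to that start than to the neighbour's. At Atg3 and Chmp5 the assignment rule required this, since a summit between the genes but nearer to the neighbour would have left the set. Only at Picalm, with its non-coding neighbour, was the side not set by the rule.

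The rule left out a few peaks close to the set. An anti-Eos peak 96.5 kb from Gabarap (fold 11.7, 17 fragments) was assigned to Acap1, which encodes a GTPase-activating protein for Arf6 on recycling endosomes. Anti-Eos peaks 59.2 kb from Rab5a (fold 7.72) and 65.2 kb from Rab33b (fold 5.41) were assigned to Kat2b and Setd7. No further anti-Helios summit lay within 100 kb of an end of the 10 genes.

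Wider lists, 5 in all, of the same pathways put the set in context. Of 49 autophagy genes, 4 had an anti-Eos summit (8.16%) and 2 an anti-Helios summit (4.08%). Without the members, 1 of 45 had an anti-Eos summit, at Vmp1, which encodes a membrane protein of the endoplasmic reticulum acting early in autophagy. That peak had a fold of 8.23, with its summit inside the gene, 84351 bp from the nearest Vmp1 start and 2972 bp from an end. Of the same 45 genes, 0 had an anti-Helios summit. The kinase genes Ulk1 and Ulk2, the conjugation genes Atg5, Atg7 and Atg12, and the LC3 genes Map1lc3a and Map1lc3b had none. Apart from the chosen genes, the share of autophagy genes with an anti-Eos summit was 2.22%, from 1 gene, beside 4.38% of all protein-coding genes.

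Of 30 ESCRT genes, Chmp5 and Vps37b, which encodes an ESCRT-I subunit, had an anti-Eos summit. That at Vps37b (fold 9.31) lay 2295 bp outside the gene. Among 33 sorting nexin and retromer genes, Snx29 and Snx11 had one. The Snx11 peak (fold 7.13, 10 fragments) had its summit 97 bp from an end. Chmp5 and Snx29 were the genes of these 2 lists with an anti-Helios summit.

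Clathrin endocytosis genes had the highest share of the 5 lists, 4 of 19 with an anti-Eos summit (21.1%) and 2 with an anti-Helios summit (10.5%). Without Picalm these were 3 and 1 of 18. Cltc, the clathrin heavy chain gene, was the further gene with summits of both antibodies over all 5 lists. Its peaks overlapped, with folds of 9.94 (23 fragments) and 5.70 (18 fragments) and summits 5 and 27 bp inside the start. Dnm2, which encodes the membrane-cutting GTPase dynamin, had an anti-Eos peak of fold 10.4 inside the gene, 25185 bp from its start. Clta, a clathrin light chain gene, had one of fold 4.85, also inside the gene.

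Of 46 Rab genes, 5 had an anti-Eos summit (10.9%) and 3 an anti-Helios summit (6.52%), and Rab8a was the only one with both. Rab12 had an anti-Eos peak of fold 7.27 with its summit 36 bp from an end, and Rab8b one of fold 7.13 inside the gene, 37232 bp from its start. Rab10 (fold 5.48, 333 bp after the start) and Rab18 (fold 7.56, 178 bp outside the gene) had anti-Helios summits. Neither overlapped an anti-Eos peak, so these were the anti-Helios peaks without a partner among the 5 lists. Over the 167 genes of the 5 lists that are not in the set, 8 had an anti-Eos summit (4.79%), 3 an anti-Helios summit (1.80%) and 1 both (0.599%). These shares stand beside 4.38%, 2.12% and 1.54% of all protein-coding genes.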

How the data were processed

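Splenic Treg cells were fixed, sonicated and immunoprecipitated with the antibodies named above, per the labels' protocols. The tools deepTools 3.5.1, SAMtools 1.17, Picard, BWA 0.7.1 and cutadapt 4.4, with the builds mm10 and GRCm38.p6, are recorded per the submitters' processing notes. The sources used here name no peak caller, settings or control library. Each deposited list gives per peak the authors' ratio (fold enrichment), -log10 p-value and -log10 q-value. The deposited score equals 10 times the -log10 q, without its decimals, in each of the 1106 and 469 lines. Each library has its own list of peaks.

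Whole fragments n and a local background b were solved from the deposited fold and -log10 p, with fold as (s n + 1) / (b + 1) and p as an upper Poisson tail, a formula inferred from the values. All peaks (100%) were solved within a relative tolerance of 0.0001, with s at 1 (anti-Eos) and 0.895 (anti-Helios), and the code was tested on simulated data. The background b was left on the scale of its list, and the lists were scaled differently. No total depth of either library was used here. Intervals cover counting error only, and fragments may include copies from amplification.

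Gene positions were those of the RefSeq table of GRCm38.p6, which gives no strand or exons. Strand and starts came from its promoter entries. Overlap meant at least 1 bp. The genes, the wider lists and the markers were chosen with earlier results of these data known. All peaks of the 10 genes were named, with genes ending within 2 kb of a summit (protein-coding by the rule, non-coding ones added after they were seen), and of each wider list genes with summits of both antibodies and up to 3 with the highest fold. No test between groups was run, since each group is 1 library and the peaks chose the genes. Python 3.11.15, SciPy 1.17.1 and pandas 2.3.3 were used.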

Additional observations from a re-analysis of the deposited data

How the results depend on the processing

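Of 36 values recomputed under the alternatives, 35 were within 1.5 times the reported one. This limit is wide, since a fall from 7 to 5 peaks lies within it. Some values could not change, such as the anti-Helios counts when only the anti-Eos list was cut. The share is therefore no measure of robustness. Assignment within 10 kb or 500 kb, or by the nearest gene end alone, left the counts at 10 and 7 peaks, at 9 genes with anti-Eos and 6 with anti-Helios summits. A -log10 q of at least 5 removed Rab33b and the anti-Helios peaks of Rab8a and the first Snx29 place, leaving 9 and 5 peaks. With the anti-Eos list shortened to the 469 peaks of highest -log10 q, Atg16l1 and Rab33b were lost and 8 peaks were left. With summits at most 50 bp apart in place of overlap, 4 of the 7 anti-Helios peaks were shared, since those of Rab8a and both Snx29 places were 51 to 137 bp from the anti-Eos summit. No paired analysis was possible because each group is 1 library. Most peaks rest on few fragments, so single folds are imprecise.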

Other observations

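The other motifs searched in the promoter entries, on both strands, were the following. The GC box GGGCGG was in 6 of the 7 entries, Rab8a being the exception, against 46.2% of all entries and 60.9% of those with an anti-Eos summit. The RUNX letters TGTGGT were in those of Rab8a and Rab33b, against 15.0% of all entries. Neither RUNX match lay under a peak of its gene. The CRE letters TGACGTCA were in that of Rab5a, 28 bases before the start, against 2.23% of all entries. This match and the GC box of Rab5a lay outside the Rab5a peak. The AP-1 letters TGANTCA and the YY1 letters ATGGCGGC were in 0 of 7, against 6.99% and 3.02% of all entries.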
